A study of Mus musculus with 240 samples.

Results

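The Iroquois genes Irx1 to Irx6 were followed through all 240 libraries of a mouse model of glioma. They are 6 of the 34623 genes in the deposited count table, taken by symbol, and the family was chosen by a measured value, the appearance of Irx2 counts in mutant cells at 90 days. That contrast is therefore described here without a test for all 6 genes, and Irx2 is untested wherever animals of 90 days enter a comparison. The cells were tdTomato-positive oligodendrocyte precursor cells (OPCs), the glial progenitors that give rise to myelinating cells, cut from brain sections by laser capture.

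Bulk RNA came from mice with the genotype Trp53-/- Nf1-/- (CKO) and from wild-type (WT) mice at 12, 90 and 150 days after the start of tamoxifen (dpi), and the CKO samples of 150 dpi were labelled brain tumor cells. The tdTomato label is shared by all groups. The labels time every group from tamoxifen. The Cre driver, the age of the mice and the part of the brain captured are not given in the sources used here. There were 7 CKO and 5 WT animals at 12 dpi, 7 CKO and 5 WT animals at 90 dpi, and 7 tumours and 6 WT animals at 150 dpi. A further 192 libraries of 10 cells each, all from CKO mice at 12 and 90 dpi, comprised 112 in which the cells were captured together (10-cell) and 80 split from a pool (pool-and-split, the technical control). For bulk groups an animal was the replicate, and 11 animals with 2 libraries had these summed.

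Iroquois proteins are transcription factors of the TALE homeodomain class, whose homeodomain carries extra residues in its first loop. Mammals carry them in a pair of clusters, with Irx1, Irx2 and Irx4 in one and Irx3, Irx5 and Irx6 in the other. In the embryo they pattern the nervous system, heart and limbs. In the neural tube Irx3 and the OPC factor Olig2 repress each other at the border between progenitor domains.

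In the table's coordinates, which are identical to those of GENCODE M21 on GRCm38, Irx1 (ENSMUSG00000060969) lies on chromosome 13 at 71957921 to 71963723 on the minus strand. Irx2 (ENSMUSG00000001504) follows at 72628820 to 72634198 and Irx4 (ENSMUSG00000021604) at 73260479 to 73269608, both on the plus strand. Gaps of 665.1 kb and 626.3 kb separate the 3. On chromosome 8, Irx3 (ENSMUSG00000031734) lies at 91798525 to 91802067 on the minus strand. Irx5 (ENSMUSG00000031737) lies at 92357625 to 92376286 and Irx6 (ENSMUSG00000031738) at 92674288 to 92680956, both on the plus strand. The gaps there are 555.6 kb and 298.0 kb. No other gene shared a stretch of 100 or more bases at 95% identity with an Iroquois transcript except the antisense genes Irx3os and Gm45505. As whole gene spans, introns included, these overlap Irx3 by 1653 bases and Irx6 by 785 bases, and they have no row in the count table. The identical transcript stretches were 124 bases for Irx3 and Irx3os and 129 bases for Irx6 and Gm45505. The strand setting of the counting is not given in the sources used here. Reads of these partners within shared stretches therefore cannot be told apart from those of Irx3 and Irx6. Between family members the closest stretches, of 187 to 194 bases, were 89.8% to 91.2% identical.

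The stretches before Irx2 and Irx4 are shown because these neighbours in 1 cluster had opposite levels in the tumours, high for Irx2 and 0 for Irx4. Both are RefSeq sequences of GRCm38.p6 on the plus strand, 5′ to 3′, ending at the last base before the annotated gene, and capitals mark CG dinucleotides. The Irx2 stretch is chr13:72628570-72628819 and the Irx4 stretch is chr13:73260247-73260478.
Irx2: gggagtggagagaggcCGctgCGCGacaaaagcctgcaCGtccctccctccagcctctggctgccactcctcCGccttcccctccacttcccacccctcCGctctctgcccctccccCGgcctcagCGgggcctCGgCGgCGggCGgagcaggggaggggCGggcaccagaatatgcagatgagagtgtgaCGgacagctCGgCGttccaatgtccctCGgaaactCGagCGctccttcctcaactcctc
Irx4: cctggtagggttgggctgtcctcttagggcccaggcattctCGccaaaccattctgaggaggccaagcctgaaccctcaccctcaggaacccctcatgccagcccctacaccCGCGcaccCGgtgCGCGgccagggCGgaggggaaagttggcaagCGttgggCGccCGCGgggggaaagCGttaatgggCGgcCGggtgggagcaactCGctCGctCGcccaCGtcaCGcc
Each printed stretch holds 19 CG dinucleotides. RefSeq promoter windows of 300 bases (250 before and 50 after the start) were at hand for 3 of the 6 genes. Those windows held 25 CG in Irx2, 14 in Irx3 and 31 in Irx4, against a median of 7 over 32851 mouse promoter windows. As many or fewer CG were found in 83.1% of windows for Irx2 and in 90.5% for Irx4. The palindromic Iroquois-type motif ACANNTGT, which reads the same on both strands and contains the E-box CANNTG, occurred in 7.38% of all windows and in none of the 3. The E-box itself occurred once in Irx2, once in Irx4 and not in Irx3, and at least once in 72.3% of all windows.

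Total counts per animal ran from 0.0937 to 31.3 M (1 M is 1000000 counts), and those of small libraries from 1.64 to 6.49 M. Levels are counts per 1000000 (CPM) of the scaled total for bulk animals and of the unscaled total for small libraries. A count of 0 is read against the level of 3 counts (the floor), which covers counting error only. The shallowest animal, WT_21167 at 90 dpi, had a floor of 28.4 CPM, above every tumour level of an Iroquois gene, so its zeros cannot tell absence from any level seen here. Of the bulk libraries, 1 from CKO_20647 at 90 dpi stood apart: its highest Spearman correlation with any other bulk library was 0.798, against 0.852 or more for the other 47. That library held no Iroquois count, and all Iroquois counts of the animal came from its other library. Leaving it out changed no number of called Iroquois genes. In bulk samples, fewer cells that transcribe a gene and less RNA per cell cannot be told apart.

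In the tumours Irx1, Irx2 and Irx5 were higher than in every WT and CKO animal other than WT_21167, whose zeros cannot be placed. Irx4 had no count in any of the 240 libraries, and Irx3 and Irx6 overlapped between tumours and WT animals. The edgeR count filter was passed by Irx1, Irx2, Irx5 and Irx6. Irx3 and Irx4 did not pass it.

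**Figure D1:**
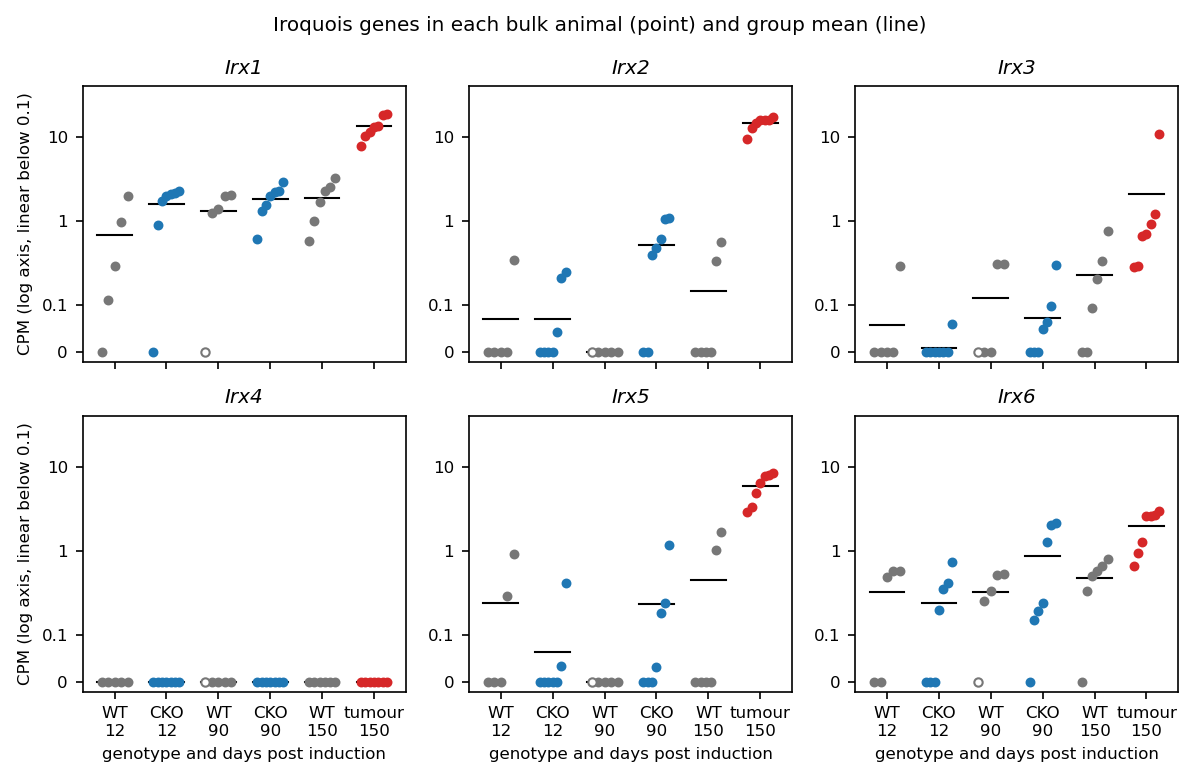
Level of each Iroquois gene in CPM (log axis, linear below 0.1) in each bulk animal, by genotype and days post induction, with lines at the group means; the open point is the WT animal with 0.0937 M counts. Leaving aside the open point, whose zeros cannot be placed, the 7 tumours sit above every other animal for Irx1, Irx2 and Irx5. Irx4 is at 0 throughout.

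Irx2, which is known from brain and lung development, read 9.37, 12.6, 14.5, 15.6, 15.7, 15.9 and 17.2 CPM in the 7 tumours, a mean of 14.4 ± 2.64 (SD). Of the 6 WT animals of 150 dpi, 4 were at 0, 1 had 1 count (0.334 CPM) and 1 had 6 counts (0.567 CPM). The ranges did not overlap, and the tumour mean was 95.9 times the WT mean of 0.150 ± 0.244 CPM. The fitted log2 change was 6.50 (SE 0.74, adjusted p = 1.0e-08), and 8.10 without WT_21593, which held 6 of the 7 WT counts. Against the 7 CKO animals of 12 dpi, of which 3 had 1, 5 and 6 counts and 4 had none, the log2 change was 7.17 (SE 0.68, adjusted p = 2.0e-10). No tumour came within the range of these CKO animals, the highest of which read 0.249 CPM. Irx2 had few counts outside the tumours, so the count filter favoured a rise. That limits what the adjusted p-values of Irx2 can show.

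The CKO animals of 90 dpi, on which the family was chosen, lay between. Their Irx2 levels were 1.10, 1.07, 0.611, 0.481 and 0.392 CPM in 5 animals and 0 in the other two. These 2, CKO_22146 and CKO_22149, were the shallowest of the group at 4.11 and 4.22 M counts, with floors of 0.768 and 0.737 CPM. The mean was 0.522 ± 0.449 CPM (SD, n = 7). It includes CKO_20647 (0.611 CPM), whose 10 counts all came from 1 library, at 1.03 CPM of that library's total. The other library of that animal is the one that stood apart. In CKO_20642 (1.10 CPM) 1 library held 19 counts and the other 3. None of the 5 WT animals of 90 dpi had a count, which over the group allows 0.0470 CPM, so the CKO mean was at least 11.1 times that bound. The 4 informative WT animals had floors of 0.154 to 0.250 CPM. At the margin of this choice, the lowest CKO animal with counts (8 counts, 0.392 CPM) stood above those WT floors and below the floors of the 2 shallow CKO animals. The 3 males read 0.611 to 1.10 CPM and the 4 females 0 to 0.481 CPM, with both zeros among the females. Tumour levels were 27.6 times the CKO mean of 90 dpi, and that mean was 7.27 times the mean of 12 dpi (0.0718 ± 0.110 CPM), both given as descriptions.

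Irx1, the neighbour of Irx2 that was detected in WT animals of every time, read 7.68, 10.4, 11.6, 13.2, 13.3, 18.3 and 18.5 CPM in the tumours, a mean of 13.3 ± 3.98 (SD). The 6 WT animals of 150 dpi read 0.580, 1.00, 1.70, 2.29, 2.55 and 3.27 CPM, a mean of 1.90 ± 1.00. The lowest tumour was above the highest WT animal, and the means differed 6.98-fold. Irx1 rose in tumours by a log2 change of 2.72 against WT (SE 0.49, adjusted p = 1.9e-05), 2.96 against CKO of 12 dpi (SE 0.46, adjusted p = 1.5e-06) and 2.82 against CKO of 90 dpi (SE 0.46, adjusted p = 3.2e-06). These comparisons share the 7 tumours. Before tumours its group means stood in the order WT 12 dpi (0.678 ± 0.834 CPM), WT 90 dpi (1.33 ± 0.822), CKO 12 dpi (1.60 ± 0.844), CKO 90 dpi (1.83 ± 0.745) and WT 150 dpi (1.90 ± 1.00). Each neighbouring pair in that order overlapped. The WT mean of 90 dpi includes the 0 of WT_21167, which cannot be placed, and the other 4 animals read 1.23 to 2.02 CPM. The place of that group in the order is therefore not fixed. Between CKO animals of 12 and 90 dpi the log2 difference was 0.14 (SE 0.44), and 6 of 7 CKO animals at 12 dpi already had Irx1 counts.

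Irx5, a member known from heart and retina, read 2.88, 3.33, 4.95, 6.50, 7.69, 8.00 and 8.48 CPM in the tumours, a mean of 5.98 ± 2.28 (SD). In WT animals of 150 dpi it had 11 counts in 1 animal (1.04 CPM), 3 in another (1.70 CPM) and none in 4. It rose by a log2 change of 4.20 against WT (SE 1.06, adjusted p = 0.0014) and of 4.72 against CKO of 90 dpi (SE 0.95, adjusted p = 1.1e-04). Without WT_21593 the first was 5.22, and without CKO_20642 the second was 6.37. Against CKO of 12 dpi, with 2 counts in all 7 animals together, the fitted value reached 7.68 (SE 1.21, adjusted p = 3.5e-06), and 8.39 without CKO_21725. With few Irx5 counts outside the tumours the count filter favoured a rise, which limits these adjusted p-values as well. Counts were present at 90 dpi in 4 of 7 CKO animals, but 24 of the 29 counts came from 1 animal, CKO_20642 at 1.20 CPM, and no WT animal had any. That animal also had the highest Irx1 (2.89 CPM) and Irx2 (1.10 CPM) of its group. Below the tumours the mean levels ran from 0 (WT 90 dpi) through 0.0648 ± 0.156 (CKO 12 dpi), 0.237 ± 0.435 (CKO 90 dpi) and 0.241 ± 0.396 (WT 12 dpi) to 0.457 ± 0.738 CPM (WT 150 dpi), all overlapping. This order is not firm. WT of 12 dpi had 4 counts in all, and the 1.70 CPM of WT_21592 equals its floor. With counts pooled over the group, CKO of 90 dpi stood at 0.266 CPM and WT of 12 dpi at 0.140.

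Irx6, which is known from retinal interneurons, read 0.659, 0.943, 1.27, 2.58, 2.62, 2.69 and 2.95 CPM in the tumours, and 0, 0.334, 0.510, 0.580, 0.662 and 0.817 CPM in WT animals of 150 dpi. The ranges overlapped through 1 tumour. The log2 change of 1.84 (SE 0.82) missed the threshold (adjusted p = 0.0645) and passed it with DESeq2 (2.02, adjusted p = 0.0364) and with RLE size factors (1.98, adjusted p = 0.0453). Against CKO of 12 dpi (mean 0.245 ± 0.280 CPM) Irx6 rose by 2.90 (SE 0.79, adjusted p = 0.0025), and by 3.71 without CKO_22208. Against CKO of 90 dpi the log2 difference was 1.17 (SE 0.73, adjusted p = 0.185). Irx6 too had few counts outside the tumours, so the count filter favoured a rise in these comparisons. Its CKO animals of 90 dpi split widely, with 3 at 1.30, 2.05 and 2.18 CPM and 4 at 0 to 0.246 CPM. WT means were 0.330 ± 0.304, 0.329 ± 0.219 and 0.484 ± 0.286 CPM at 12, 90 and 150 dpi, and overlapped with CKO of 12 dpi. The mean of 90 dpi includes the 0 of WT_21167, which cannot be placed.

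Irx3, the member with the known role opposite Olig2, had counts in all 7 tumours. It read 0.287 to 1.21 CPM in 6 of them and 10.8 CPM (50 counts) in Tumor_21256. Both libraries of that tumour were high, with 18 counts in 2.86 M and 32 counts in 2.05 M. In WT animals of 150 dpi Irx3 ranged from 0 to 0.764 CPM, which overlapped with 4 of the tumours. At 12 dpi it had 1 count in the 7 CKO animals together and 1 in the 5 WT animals. At 90 dpi both groups had 10 counts, at means of 0.0741 ± 0.109 CPM in CKO and 0.124 ± 0.169 CPM in WT. That WT mean includes the 0 of WT_21167, which cannot be placed. Tested without the count filter, Irx3 in tumours was higher than in WT by 2.95 on the log2 scale (SE 1.05, adjusted p = 0.0307). Without Tumor_21256 this was 1.47 (SE 1.05, adjusted p = 0.338). Against CKO of 12 dpi the unfiltered change was 6.48 (adjusted p = 3.3e-05) and 5.19 without that tumour (adjusted p = 3.2e-04).

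Irx4, known for its role in heart ventricles, was at 0 in all 37 animals. In tumours a count of 0 allows up to 0.0204 CPM over the group. Its cluster neighbours Irx1 and Irx2 stood at 13.3 and 14.4 CPM in the same tumours.

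Per kb of exonic length the tumour levels were 5.06 ± 1.52 CPM per kb for Irx1 and 4.39 ± 0.803 for Irx2, whose ranges overlap. Irx5 followed at 1.91 ± 0.730, Irx3 at 0.768 ± 1.38 and Irx6 at 0.581 ± 0.285 CPM per kb. The summed level ran from 9.99 to 18.5 CPM per kb. Irx1 made up 26.8% to 46.0% of it and Irx2 28.4% to 43.6%. The share of Irx3 was 21.1% in Tumor_21256 and 0.677% to 3.38% in the other six. Irx5 gave 8.37% to 24.8%. The 2 libraries of a tumour differed by a median of 1.73-fold for Irx2 (1.12 to 3.83) and 1.57-fold for Irx1 (1.01 to 2.05), which limits how finely tumours can be ranked.

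**Figure D2:**
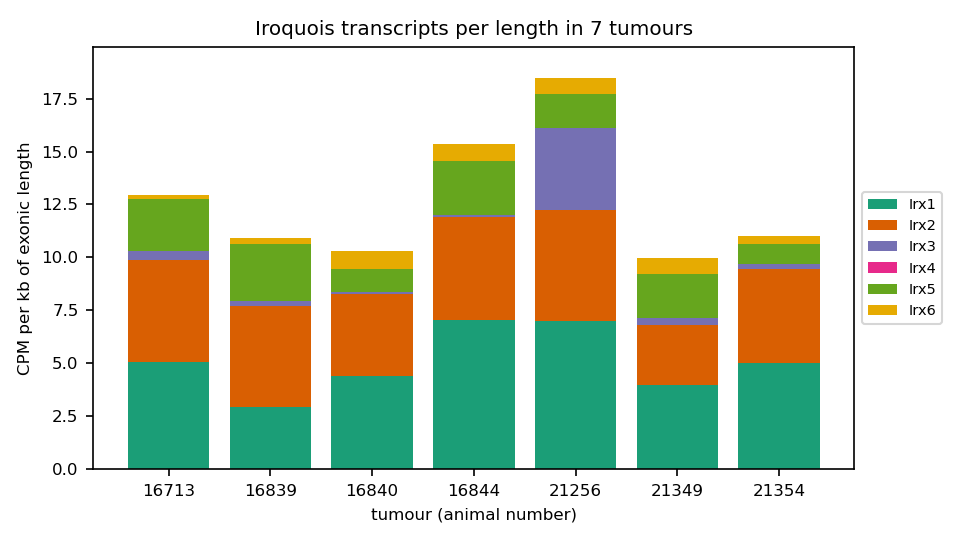
Stacked levels of the Iroquois genes in CPM per kb of exonic length in each of the 7 tumours, by animal number. Irx1 and Irx2 make up most of each bar, and Tumor_21256 has the large Irx3 segment (21.1% of its bar).

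Counted over the comparisons, 3 of the 4 filtered genes were called higher in tumours than in WT of 150 dpi, where 46.2% of all 16349 tested genes were called and 24.3% were called higher. All 4 were called higher than in CKO of 12 dpi, beside 48.7% of genes called and 26.8% called higher. Against CKO of 90 dpi 2 of the 3 tested genes were called higher, beside 49.1% of genes called and 26.4% called higher. A called rise in tumours was thus common among genes. The median log2 change of all tested genes against WT was 0.06. Irx2, Irx5 and Irx6 had few counts outside the tumours, so the filter favoured a rise there, and the number called carries no weight for the family.

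**Figure D3:**
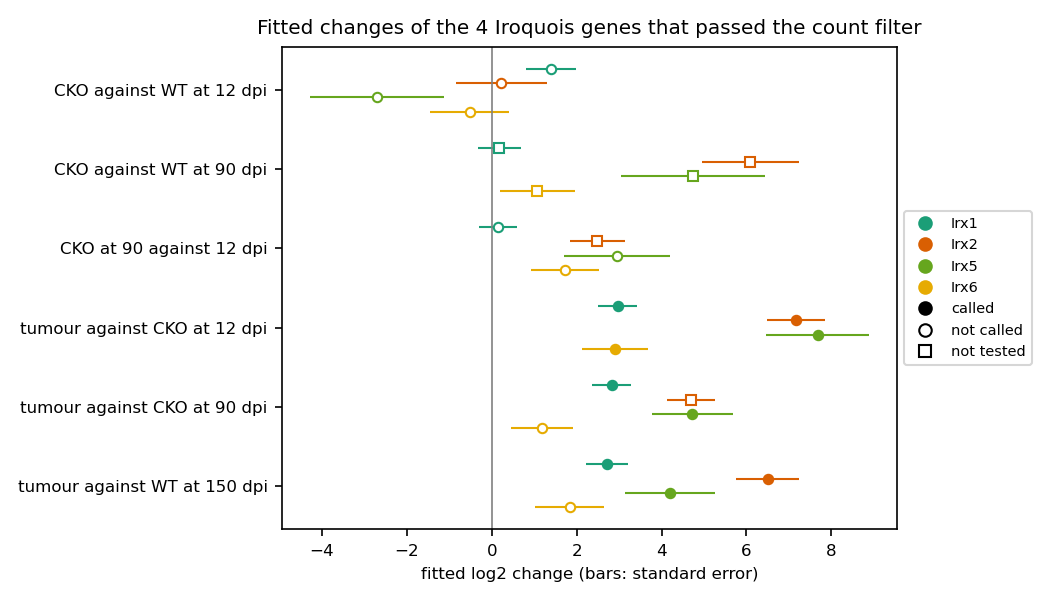
Fitted log2 change with its standard error for the 4 Iroquois genes that passed the count filter, in 6 comparisons; filled circles passed an adjusted p of 0.05, open circles did not, and squares are descriptions without a test. All called changes are in the tumour comparisons and lie between 2.72 and 7.68.

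In the tested comparisons without tumours no Iroquois gene was called. Between CKO and WT at 12 dpi edgeR called 0 of 4, with 0.0183% of all genes called, and DESeq2 called 0. Irx1 was the 1 gene with an unadjusted p under 0.05, with a log2 change of 1.39 (SE 0.58, adjusted p = 0.997), where 4.85% of all genes had such a p. Between CKO of 90 and 12 dpi edgeR called 0 of 3 and 0% of all genes, and DESeq2 called 0 of the 3. Irx5 (log2 change 2.96, SE 1.24) and Irx6 (1.73, SE 0.80) had an unadjusted p under 0.05, as did 4.26% of all genes. Between WT of 90 and 12 dpi edgeR and DESeq2 called 0 of 3, with 0.00612% of all genes called by edgeR and 2 Iroquois genes, Irx1 and Irx5, at an unadjusted p under 0.05 beside 4.86% of all genes. Between WT of 150 and 90 dpi both called 0 of 3, with 0.0183% of genes called by edgeR and Irx5 at an unadjusted p under 0.05 beside 8.26% of all genes. In the contrast that chose the family, CKO against WT at 90 dpi, the fitted difference was 0.18 for Irx1 (SE 0.51) and 1.07 for Irx6 (SE 0.89), and Irx2 and Irx5 had no count in WT. The choice of the family used this contrast, in which 0.0489% of all genes were called, and no direction is read from it.

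The difference of mutant cells from WT was compared between 150 and 12 dpi, a contrast added after the values were seen. The mutant group of 150 dpi was tumours alone, so time and tumour state cannot be told apart in it. This difference was larger at 150 dpi for Irx2, by 6.27 on the log2 scale (SE 1.53, adjusted p = 0.0019), and for Irx5, by 6.90 (SE 2.02, adjusted p = 0.0085). For Irx6 it was 2.36 (adjusted p = 0.152) and for Irx1 1.32 (adjusted p = 0.192). In this contrast 31.0% of all genes were called. Both calls rest on single WT animals of 12 dpi with 3 counts. Without WT_22178 the Irx2 value was 2.81 (adjusted p = 0.914), and without WT_22281 the Irx5 value was 4.89 (adjusted p = 0.218).

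Cell type markers are set against all tested genes, of which 24.3% were called higher and 21.9% lower in tumours than in WT. Of 10 OPC markers, 8 were called higher in tumours than in WT of 150 dpi, and their summed level had a median of 8352 CPM against 3939. Of 8 neuron markers, 7 were called lower, with sums of 219 to 1457 CPM in tumours and a median of 8476 CPM in WT. Microglia markers were called higher in 7 of 8 (sums of 221 to 773 against 97.5 to 138 CPM), and fibroblast and meninges markers in 6 of 8 (29.8 to 895 against 47.1 to 122 CPM), or in 3 of 8 without Tumor_16713. Of 8 oligodendrocyte markers 5 were called lower and 1 higher, of 8 astrocyte markers 4 higher and 2 lower, of 8 endothelial markers 1 lower (3 without Tumor_21256 or Tumor_21354), and of 5 tested markers of ependyma and choroid plexus 1 higher. No marker list was at 0 in the tumours. At 90 dpi the neuron sums were 7199 to 13510 CPM in CKO and 6180 to 8281 CPM in WT, and the microglia sums 80.6 to 158 and 91.9 to 128.5 CPM. The part of these shifts in the Iroquois levels was not tested.

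Of 12 tested TALE genes outside the family, 2 were called higher in tumours than in WT and 6 lower, beside 21.9% of all genes called lower. Tgif1, a corepressor of TGF-beta signalling, read 18.95 ± 7.23 CPM in tumours and 1.94 ± 1.59 in WT (log2 change 3.41, adjusted p = 2.8e-06). Tgif2 rose by 2.07 (adjusted p = 2.7e-06). Pbx3, a cofactor of HOX proteins, was at 24.5 ± 7.84 CPM in tumours and 559 ± 49.6 in WT, a log2 change of -4.52 (adjusted p = 3.8e-21). Meis2, a partner of PBX proteins, was at 98.6 ± 57.7 against 1389 ± 279 CPM, a log2 change of -3.85 (adjusted p = 8.9e-13). The median log2 change of the 12 was -0.43.

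Genes beside the clusters are set against all genes, of which 24.3% were called higher and 21.9% lower. Of 13 tested neighbours on chromosome 13, 4 were called higher and 2 lower in tumours than in WT. Those nearest to Irx4, Mrpl36 and Ndufs6 at 0.70 Mb from the start of Irx2, had log2 changes of 0.74 (called) and -0.14 (not called). The phospholipid enzyme gene Lpcat1 rose by 1.20 and the steroid reductase gene Srd5a1 by 1.64, while Ube2ql1 fell by 3.58 and Ice1 by 0.58. The call of Ice1 was lost with the compared groups alone (adjusted p = 0.0591). On chromosome 8, 2 of 10 tested neighbours were called higher and 2 lower. Without the count filter 4 of the 12 listed were called higher, beside 4127 of all 28074 genes. Capns2 and Slc6a2, which failed the filter, were at 0 in WT of 150 dpi, so only a rise could be called for them. The 2 called higher with the filter, the matrix protease gene Mmp2 (1.94, SE 0.41) and Lpcat2 (1.99, SE 0.28), are the next genes after Irx6. They lie at 0.47 and 0.50 Mb from the start of Irx5. On the other side Fto, Rpgrip1l, Aktip and Rbl2, at 1.04 to 1.29 Mb, had log2 changes between -0.33 and 0.00, and none was called. Gnao1 fell by 1.33 and Chd9 by 0.39, and the call of Chd9 was lost with DESeq2 (adjusted p = 0.146), with RLE size factors (adjusted p = 0.160), with the compared groups alone (adjusted p = 0.266) and without Tumor_21354 (adjusted p = 0.0508).

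**Figure D4:**
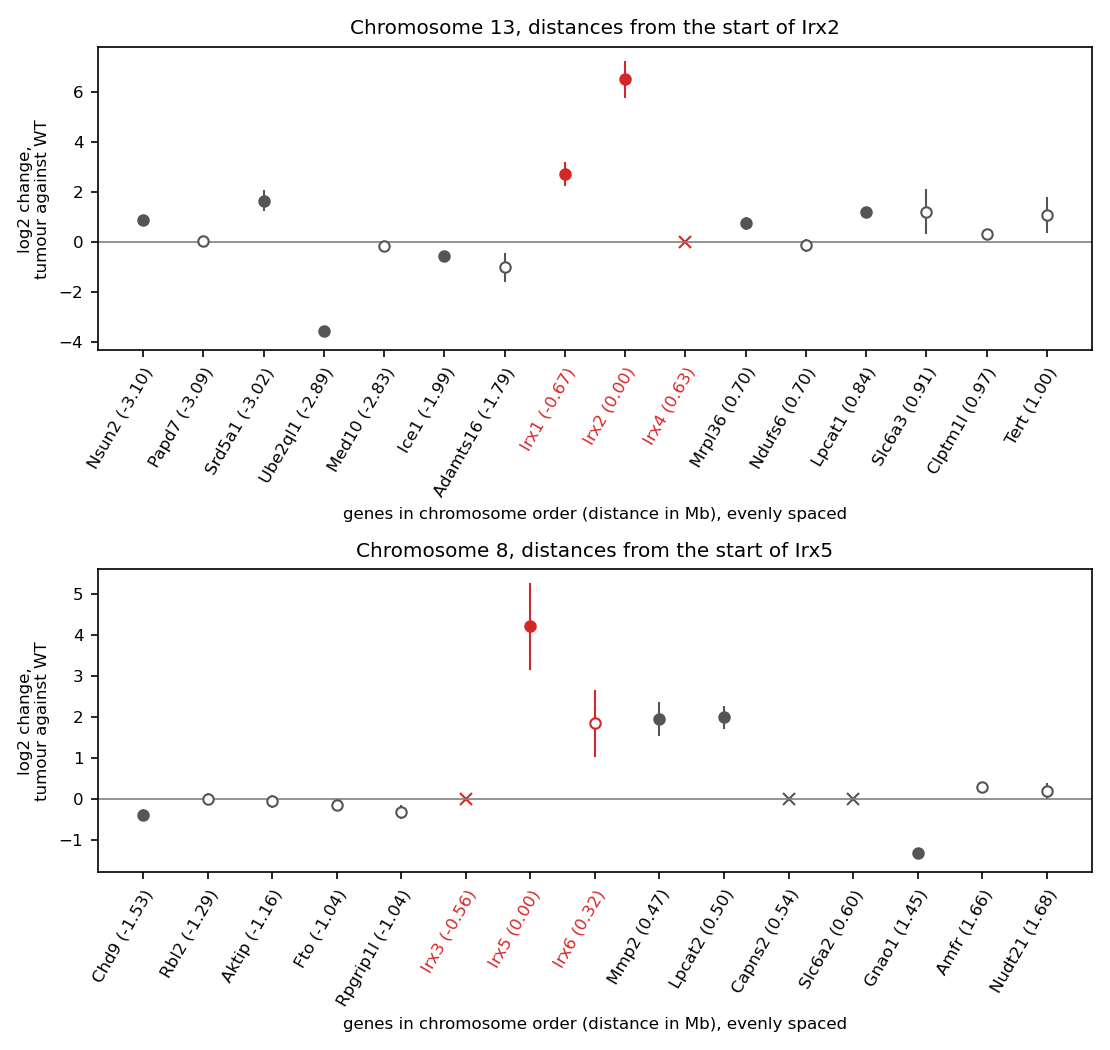
Log2 change in tumours against WT of 150 dpi (bars, standard error) of the Iroquois genes (red) and their neighbours (grey) in chromosome order, with the distance in Mb from the start of Irx2 or Irx5 in brackets; filled points were called and crosses were not tested. Irx2 at 6.50 and Irx5 at 4.20 stand above every tested neighbour of their cluster. Their WT means (0.150 and 0.457 CPM) were below those of these neighbours, so the count filter favoured a large change and this order carries no weight.

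Regional patterning genes were read beside the family because Iroquois genes mark regions of the developing nervous system. Over all tested genes, 24.3% were called higher in tumours than in WT of 150 dpi and 21.9% lower. Of 12 genes of the diencephalon, midbrain and hindbrain, 7 were tested and all 7 were called higher in that comparison. Leaving out 1 animal at a time gave 5 to 7. The midbrain and hindbrain factor En1 was at 12.1 ± 9.77 CPM and Hoxa2, a hindbrain HOX gene, at 10.6 ± 10.7 CPM in tumours, and neither had a count in the 6 WT animals. For genes so low outside the tumours the count filter favoured a rise, so the number called carries no weight for this list. The summed level of the list was 57.55 to 176 CPM in tumours and 21.1 to 48.7 CPM in WT, without overlap. Of 12 telencephalon genes 5 were called lower, led by the forebrain factors Dlx1 (23.55 ± 22.5 against 352 ± 95.6 CPM) and Dlx2 (8.82 ± 8.98 against 112 ± 49.9 CPM). In that list 1 was called higher, and DESeq2 called 2 higher. The list's sums were 45.4 to 331 CPM in tumours and 540.5 to 1208 CPM in WT, again without overlap. Of 15 genes of neural tube progenitor domains 9 were tested. Of these 7 were called higher, among them Gsx1 (log2 change 3.98), and 1, Pax6, lower (-1.08). Olig1 and Olig2 are on this list and also among the OPC markers, so the results of those lists are not separate. Here too the count filter favoured a rise in genes low outside the tumours. In CKO animals of 90 dpi the sums of the diencephalon, midbrain and hindbrain list were 24.15 to 38.0 CPM and overlapped with those of WT of 90 dpi (19.0 to 35.7 CPM).

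Over the 37 animals, the genes most like Irx2 in log2 CPM (prior count 2) included the cell-cycle inhibitor gene Cdkn2a (Pearson r = 0.93) and the SOX factor gene Sox6 (0.92). With group means removed the same correlations were 0.35 and 0.20. Sox6 also led for Irx5 (0.89, within groups 0.43), followed by Ugdh (0.89 and 0.40) and Sh3d19 (0.88 and 0.31). For Irx1 the Wnt receptor gene Fzd7 came first (0.82, within groups 0.68), then C1ra (0.82 and 0.52) and Mtmr10 (0.80 and 0.46). For Irx6 they were Zkscan17 (0.75 and 0.61), Tap1 (0.73 and 0.55) and 4932415D10Rik (0.72 and 0.54). Irx2 and Irx5, from different clusters, had r = 0.84 over all animals and 0.10 within groups. Irx1 and Irx2, from the same cluster, had 0.73 and 0.01. The values over all animals include the step from other animals to tumours, and those within groups do not.

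In libraries of 10 cells the family was rare. No Iroquois gene had a count in 50 of 56 10-cell libraries at 12 dpi and in 39 of 56 at 90 dpi, and only 2 libraries, both of 90 dpi, held a pair of them. Among pool-and-split libraries 36 of 40 and 33 of 40 had none. Irx1 had a count in 3 of 56 10-cell libraries at 12 dpi (5.36%, exact 95% interval 1.12 to 14.9%) and in 10 of 56 at 90 dpi (17.9%, 8.91 to 30.4%), against 3 and 2 of 40 pool-and-split libraries. These intervals cover counting error only, not the spread between the 4 sets of 14 libraries at each time. With at least 5 counts required these were 1 and 4 of 56, and thinned to the shallowest library 4.62% and 14.4%. The 10 libraries of 90 dpi came from all 4 sets (sex and label number) and the 3 of 12 dpi from 2 sets. Irx1 was the 1 Iroquois gene that passed the filter in these sets. Its log2 change from 12 to 90 dpi was 3.74 in 10-cell sets (SE 1.72, adjusted p = 0.700), where 268 of the 323 counts at 90 dpi came from 1 library, and 0.52 in pool-and-split sets (SE 1.85, adjusted p = 0.974). Leaving out 1 set at a time gave 2.29 to 5.67 in 10-cell sets and -1.13 to 1.92 in pool-and-split sets, where the direction turned without female_2 or male_1 of 90 dpi. By edgeR 0% of genes were called in either kind, 1034 of 14500 and 1050 of 13408 had an unadjusted p under 0.05, and DESeq2 did not call Irx1 in 10-cell sets and gave it no adjusted p in pool-and-split sets.

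Irx2 had 17 counts (5.95 CPM) in 1 10-cell library of 12 dpi and 193 counts (47.7 CPM) in 1 of 90 dpi. The other 55 libraries at each time had none, and 2 of 40 pool-and-split libraries of 90 dpi had 1 and 3 counts. That library of 90 dpi was also 1 of the 10 with Irx1 (2 counts). Its Irx2 level was above the bulk level of every tumour. That sets 1 library of 10 cells against bulk samples that differ from it in amplification and in scaling. Irx6 had 956 counts (232 CPM) and 242 counts (63.4 CPM) in 10-cell libraries of 90 dpi and 291 counts (65.3 CPM) in a pool-and-split library of 12 dpi. Irx3 had 43 and 36 counts in 2 10-cell libraries of 90 dpi and 1 count in another. Irx5 had 3 counts in all, 1 and 2 of them in single libraries of either kind at 90 dpi. High counts thus sat in single libraries, in pool-and-split controls as well as in 10-cell samples. A count of 0 in 56 libraries, read as 3 of 56, allows a share of up to 5.36% of libraries with a count. The upper end of the exact 2-sided 95% interval is 6.375%.

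**Figure D5:**
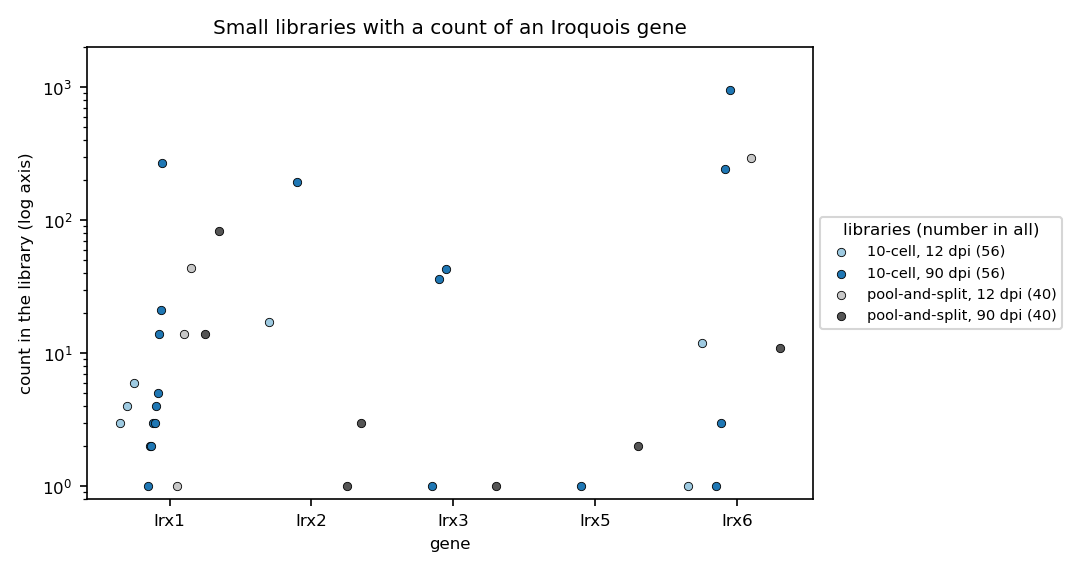
Counts of each Iroquois gene (log axis) in those small libraries that had any, by kind of library and time, with the number of all libraries in the legend. Most points lie under 50 counts, and single libraries reach 268 for Irx1, 193 for Irx2 and 956 for Irx6.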

How the data were processed

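Per the labels, RNA of the bulk samples was amplified with T7 polymerase, and that of small libraries by PCR with Nextera XT. RSEM, Bowtie2 and GRCm38 stand in the submitters' processing notes without versions. The deposited values are expected counts per gene, unscaled. The 92 spike-ins were left out. The Iroquois members, gene lists, named genes (the 2 largest called rises and falls of each list in tumour against WT, and the 3 most correlated genes per member) and tests were chosen with earlier results of these data known. Some genes that this rule names are not reported here. Expected counts were rounded and summed per animal or set. Genes kept by filterByExpr (at least 10 counts, 15 in total) were normalized with TMM and tested with the quasi-likelihood test of edgeR 4.0.16 (R 4.3.3), with sex as covariate and all 37 animals in 1 fit. A call is an adjusted p (Benjamini-Hochberg, all genes) under 0.05. The tests were tried on simulated data. Alternatives included DESeq2 1.42.0, RLE, other filters and each replicate left out. BLAST 2.17.0 searched for transcript copies. What the set number stands for is not given in the sources used here, so p-values over sets may measure technical spread.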

Additional observations from a re-analysis of the deposited data

Results flagged for a closer look

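Among 28 groups of 4 to 10 animals with varying Iroquois levels, 7 had 1 animal far from the others. Chance gives about 1 in 20 groups for continuous values, a rate that does not hold where most animals are at 0, so the number of such groups is no measure of excess. Tumor_21256 had 10.8 CPM of Irx3, from 50 counts, with the other 6 tumours at 1.21 CPM or less. CKO_20642 of 90 dpi had 1.20 CPM of Irx5 from 24 counts. CKO_20647 of 90 dpi had 0.306 CPM of Irx3 from 5 counts. In the other four the animal had 1 to 3 counts where most of its group had none: Irx2 in WT_22178 of 12 dpi (0.351 CPM), Irx3 in CKO_22364 (0.0600 CPM) and WT_22280 (0.290 CPM) of 12 dpi, and Irx5 in CKO_21725 of 12 dpi (0.418 CPM). Each of these 4 values is at or under that animal's level for 3 counts.

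The difference from WT was larger for tumours of 150 dpi than for CKO cells of 12 dpi, by the edgeR test of that change. It was larger by 6.27 on the log2 scale for Irx2 and by 6.90 for Irx5. Both calls are lost without a single WT animal of 12 dpi with 3 counts, as given with the comparison.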

How the results depend on the processing

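No recomputed number of called Iroquois genes moved by over 1.5 times. In CKO against WT at 90 dpi, which has no test here, 1 fitted value was above 0 with the compared groups alone in place of 4, because only Irx1 passed the filter there. Leaving out each of 37 animals gave 3 to 4 called genes in tumour against WT, 4 against CKO of 12 dpi and 2 against CKO of 90 dpi. Of the changes of single members 837 kept their direction and side of the threshold, 4 passed it, 2 lost it and 2 reversed. Leaving out 1 pool-and-split set at a time, the Irx1 change ran from -1.13 (without female_2 of 90 dpi) to 1.92, and was -0.58 without male_1 of 90 dpi. Irx6 in tumour against WT was also called without CKO_20647 (adjusted p = 0.0405) and without CKO_22363 (adjusted p = 0.0489). With a replicate block of sex and number the Irx1 change was 4.65 in 10-cell and 0.51 in pool-and-split sets, and 0 Iroquois genes were called. Same-numbered 10-cell sets had deviations correlated at -0.03 to 0.02. With few sets at each time this cannot settle whether the numbers pair them. DESeq2 gave no adjusted p for Irx1 in pool-and-split sets. Of the 3 genes most like Irx1, 1 stayed with Spearman and 0 with a prior count of 0.5. With Spearman 0 stayed for Irx5 and 1 for Irx6. In tumour against WT, RLE scaling moved the median of all genes from 0.06 to 0.22 and the share of higher calls from 52.6% to 62.1%. The library left out, the unfiltered Irx3 test without Tumor_21256 and the comparison of the differences from WT at 150 and 12 dpi were chosen after seeing the data. Depth limits WT most at 12 and 150 dpi, where the median totals were 3.47 and 4.19 M counts.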
